A study of Homo sapiens with 24 samples.

Results

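The transcriptome of BRCA2-restored PEO1 cells after 6 h of pyridostatin was compared with that of the same cells without treatment. The members are all genes of the comparison, and the samples are the 6 libraries of these conditions out of 24 in the series. PEO1 is an established line of human ovarian adenocarcinoma whose BRCA2 gene carries a truncating mutation. The cells used here, PEO1 BRCA2+, are PEO1 cells that have gained a further mutation of BRCA2 and make a functional protein again. They are 1 reverted line, so effects of the reversion and of that line cannot be told apart. The untreated group (3 libraries) received nothing, and the treated group (3 libraries) received 5 µM pyridostatin (PDS) for 6 h. The untreated libraries are labelled as the start of the time course. No library with vehicle or with a mock treatment of 6 h is among the samples. Effects of PDS and of handling or time therefore cannot be told apart. Another group of 3 libraries from the same cells had PDS for 2 h. PEO4, a line from the same patient taken after relapse, went through the same treatments and is used below only where responses are compared. Per the study, PEO4 carries its own BRCA2 reversion that restores the reading frame, and it was less sensitive to cisplatin than PEO1 BRCA2+.

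Guanine-rich DNA can fold into four-stranded structures, the G-quadruplexes or G4s, in which stacked squares of guanines are held by a metal ion. G4 motifs are frequent just upstream of transcription start sites, and G4s form in open chromatin of active genes. PDS is a small molecule that binds G4s and stabilizes them, which can stall polymerases and helicases and cause DNA breaks. BRCA2 acts in the repair of broken DNA by homologous recombination, and cells without it are sensitive to G4 ligands.

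Gene counts totalled 19635769 to 22375644 in the untreated libraries and 34455291 to 38123787 in those at 6 h, so every treated library was the deeper one. Ribosomal RNA genes took 0.217% to 0.474% of the counts without treatment and 0.0163% to 0.0369% at 6 h. The labels name no batch or date, and preparation and treatment cannot be told apart. Values are counts per 1000000 (CPM), scaled by TMM (trimmed mean of M-values), so a fold change is relative to most genes and the RNA content of a cell was not measured. Of 28277 genes in the table, 4746 had no count in any of its 18 libraries and 17020 had enough counts for the test. The submitters describe the libraries of a group as biological replicates without saying what separated them, and p-values measure the spread between these libraries.

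The label of the line was checked against markers of high-grade serous ovarian carcinoma. Of 19 such markers in the table, 17 were tested, and their summed level was 11432 to 11748 CPM without treatment and 14452 to 15747 CPM at 6 h. Its largest members were the keratins KRT7 (mean 3313 CPM and then 3949 CPM) and KRT8 (3265 CPM and then 4882 CPM). By the test described below 7 markers were higher and 5 lower (27.0% and 26.0% of all genes), with a median log2 fold change of -0.04. MUC16 and WFDC2 were the 2 that fell past 2-fold, and 0 rose past it. SOX17, a lineage factor of these tumours, had at most 3 counts in every library of both groups, and FOLR1 in every untreated library. Immune markers summed to 41.3 to 44.3 CPM and then to 49.2 to 51.5 CPM, with 13 and 12 of 19 genes at 3 counts or fewer in each library. Endothelial markers reached 3.29 to 5.45 CPM and then 5.53 to 6.04 CPM. Fibroblast markers summed to 698 to 1020.1 CPM without PDS and to 309.9 to 344 CPM at 6 h. The fibroblast collagen COL3A1 and the proteoglycans DCN and LUM had at most 3 counts in every library. Most of the fibroblast sum was fibronectin (FN1), which carcinoma cells also make. Other members of the list were present, and the largest of them was THY1, at a mean of 114 CPM and then 111 CPM. By adjusted p alone FAP was higher at 6 h and COL1A1 and ACTA2 were lower, all by less than 2-fold.

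Most genes changed little, and most of those that changed by over 2-fold went down. At a Benjamini-Hochberg adjusted p under 0.05 from edgeR's quasi-likelihood test and an absolute log2 fold change over 1, PDS raised 220 genes (1.29% of 17020) and lowered 1163 (6.83%). The lowered genes were thus 84.1% of the 1383 called (8.13%), or 91.4% when libraries were scaled by their totals. With no fold threshold, 4593 genes (27.0%) passed upward and 4431 (26.0%) downward. These shares over all genes are the background of the counts given for gene lists. For 10518 genes (61.8%) the libraries of both groups did not overlap. The median log2 fold change was 1.30 among raised genes and -1.43 among lowered genes, and 30 raised and 249 lowered genes passed 4-fold. In a bulk sample, a lower level may come from fewer cells with the transcript or from less of it per cell, and these cannot be told apart.

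The lowered genes were mainly genes of low level. A mean log2 CPM of at least 3 over the 6 libraries was reached by 60.8% of all tested genes but by 35.5% of raised and 15.9% of lowered ones. Among the 10350 genes at that level, a restriction chosen after seeing the data, 78 (0.754%) were raised and 185 (1.79%) lowered. The share of lowered calls also differed between kinds of gene, which differ in level. Of 14256 protein-coding genes 167 (1.17%) were raised and 766 (5.37%) lowered. The lowered share of 5.37% there stands against 11.1% of 1457 long non-coding RNA genes, 23.4% of 316 microRNA genes and 21.7% of 184 small nucleolar RNA genes. The median of the mean log2 CPM was 4.50, 0.48, -0.37 and -0.15 in the same order. Protein-coding genes at a mean log2 CPM of 0 to 1 were lowered in 17.8% of cases, and those below 0 in 18.8%. MicroRNAs and small nucleolar RNAs are small RNAs nested in host genes or non-polyadenylated, and the counting rule for nested genes is not given in the sources used here.

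**Figure D1:**
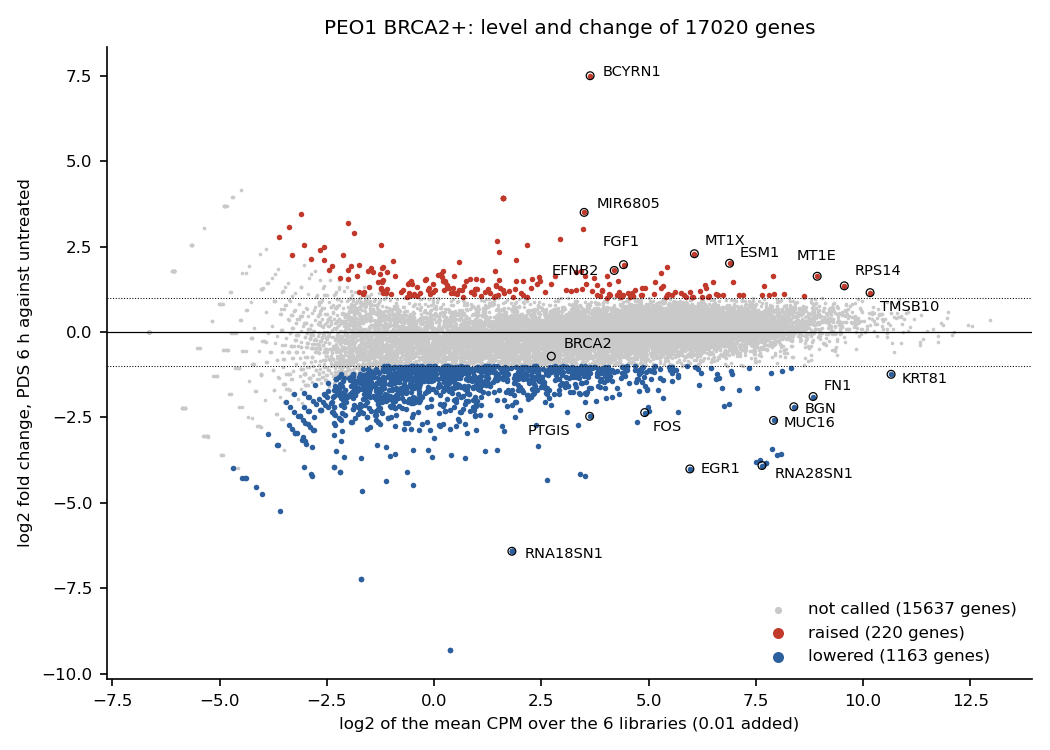
Log2 fold change at 6 h against untreated (vertical axis) over the log2 of the mean CPM of the 6 libraries (horizontal axis) for 17020 genes of PEO1 BRCA2+. Red points are the 220 raised genes, blue points the 1163 lowered genes and grey points those not called. Dotted lines mark log2 fold changes of 1 and -1, and circles mark genes named in the text. Blue points crowd at low levels, while BCYRN1 (7.50), MT1X (2.29) and MT1E (1.63) stand above and EGR1 (-4.01), MUC16 (-2.59) and KRT81 (-1.24) below at higher levels.

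BRCA2 itself was measured first. It had 7.86, 8.80 and 8.08 CPM in the untreated libraries, 6.20, 6.75 and 7.97 CPM at 2 h and 5.15, 4.67 and 5.25 CPM at 6 h. All 3 libraries at 6 h lay below all untreated ones, and the 2 h libraries lay between or overlapped the untreated ones. The log2 fold change at 6 h was -0.71 (standard error 0.123, edgeR adjusted p = 2.7e-05) and ranged from -0.74 to -0.65 when single libraries were dropped. It is under the 2-fold threshold, so BRCA2 was not among the called genes. A 2-sided exact permutation test of log2 CPM gave p = 0.100 (n = 3 each), the smallest that 3 against 3 allow. The gene lies on chromosome 13 from 32315077 to 32400268 (GRCh38) and overlaps ZAR1L and IFIT1P1. Of 38 tested genes of homologous recombination and the Fanconi anaemia pathway, 0 were called in either direction at the 2-fold threshold. The list median was 0.11, against -0.03 for all genes. By adjusted p alone 16 of the 38 were higher and 5 lower (27.0% and 26.0% of all genes). The resection nuclease EXO1 (0.62, adjusted p = 6.3e-07) was among the former, and ATM (-0.45, adjusted p = 3.1e-05) and RAD52 (-0.61, adjusted p = 1.6e-04) were among the latter, all by edgeR. With library totals the medians were -0.03 for this list and -0.17 for all genes, so the sign of the list's median turned with the scaling while the list lay above all genes under both.

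Metallothioneins were the list with the highest share of raised members. These are small cysteine-rich proteins that bind zinc and copper, and their genes lie side by side on chromosome 16. Zinc that is free in the cell is sensed by the transcription factor MTF1, which binds metal response elements in their promoters. Of 11 listed genes 7 were tested, and 5 of them rose (71.4%, against 1.29% of all genes) while 0 fell, with a list median of 1.64. The count was also 5 after an offset for GC content and transcript length. Near-identical copies make the split of reads among these genes uncertain.

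MT1X had 27.0, 20.9 and 20.6 CPM without PDS and 119, 126 and 89.0 CPM at 6 h. It rose 4.88-fold (log2 fold change 2.29, standard error 0.129, edgeR adjusted p = 4.2e-10), with no overlap between groups. Its level at 2 h was 72.0 CPM on average, between the other conditions. MT1E, the most abundant of the raised members, went from 253, 244 and 219 CPM to 767, 812 and 633 CPM, which is 3.09-fold (adjusted p = 6.7e-12). Every treated library was above every untreated one, and the third treated library was the lowest of its group for MT1X, MT1E and MT1M alike. MT1M rose from 19.7, 19.4 and 16.2 CPM to 78.0, 74.5 and 52.6 CPM (3.71-fold, adjusted p = 1.1e-07). MT1F rose 3.11-fold (adjusted p = 1.0e-07), and the low-level MT1G rose from 1.58, 1.12 and 1.27 CPM to 9.14, 9.16 and 4.67 CPM (5.81-fold, adjusted p = 4.8e-05). MT2A, the best expressed member at 948, 849 and 919 CPM, was at 1530.4, 1596 and 1407 CPM at 6 h, 1.67-fold higher (adjusted p = 2.7e-05) and under the fold threshold. MT1A did not pass the test (log2 fold change -0.17, adjusted p = 0.500). These p-values are from edgeR's quasi-likelihood test.

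Zinc transporters were looked at after their values were seen. Of 17 tested genes of the SLC30 and SLC39 families 1 rose and 2 fell (1.29% and 6.83% of all genes). Their median was -0.04. SLC39A4, which imports zinc across the plasma membrane, fell from 17.6, 16.2 and 19.1 CPM to 2.50, 2.82 and 2.73 CPM (6.58-fold lower, edgeR adjusted p = 7.9e-09). SLC30A1, the zinc exporter, rose from 33.6, 33.4 and 41.2 CPM to 83.9, 80.2 and 66.4 CPM (2.13-fold, adjusted p = 1.5e-07), and its log2 fold change was 0.94 with library totals, under the threshold. SLC39A10, another importer, was just past the threshold, with a log2 fold change of -1.01 (adjusted p = 1.9e-08), and lost its call in 3 of the 6 fits that left out a library. In all 3, the groups did not overlap.

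The promoters of MT1X and MT2A are shown because these were the tested members of this family with a window in the set used here. That set held none for MT1A, MT1E, MT1F, MT1G and MT1M, so these were not looked at. MT1X was among the 5 of the 7 tested members that rose, while MT2A stayed under the fold threshold. Each window runs from 250 bases before to 50 bases after the start of a RefSeq transcript (GRCh38.p14, plus strand), MT1X at chr16:56682220-56682519 and MT2A at chr16:56608334-56608633. Capitals mark metal response elements, searched on both strands as TGCACNC or TGCGCNC.
MT1X: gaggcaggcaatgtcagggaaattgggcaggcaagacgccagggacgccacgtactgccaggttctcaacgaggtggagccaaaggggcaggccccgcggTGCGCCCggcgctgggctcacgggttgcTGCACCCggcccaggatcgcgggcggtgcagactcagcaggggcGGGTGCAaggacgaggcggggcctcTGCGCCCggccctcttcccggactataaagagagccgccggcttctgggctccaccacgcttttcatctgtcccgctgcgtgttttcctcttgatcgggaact
MT2A: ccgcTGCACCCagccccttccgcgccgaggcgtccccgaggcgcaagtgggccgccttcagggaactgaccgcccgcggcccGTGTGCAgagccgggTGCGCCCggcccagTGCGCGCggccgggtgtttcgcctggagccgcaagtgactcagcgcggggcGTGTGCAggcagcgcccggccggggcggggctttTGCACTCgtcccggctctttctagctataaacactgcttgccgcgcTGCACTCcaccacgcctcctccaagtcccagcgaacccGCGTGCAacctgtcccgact
The MT1X window held 4 matches and the MT2A window 8, and 29.3% of 27305 promoter windows of this length held at least 1. Among protein-coding genes tested, 0.895% of 4470 with a match were raised, against 1.21% of 7132 without one. A match describes letters and is no measured binding site.

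Outside this family, the protein-coding genes with the largest rises, among those whose groups did not overlap and whose mean log2 CPM was 3 or more, were ESM1, FGF1, EFNB2, CFAP58, NR5A2 and PET100. ESM1 (endocan), a secreted proteoglycan, had 48.4, 47.7 and 45.0 CPM and then 182, 190.4 and 197 CPM, a 4.04-fold rise (edgeR adjusted p = 3.3e-06). FGF1, a fibroblast growth factor, went from 9.20, 9.67 and 7.20 CPM to 35.1, 37.0 and 29.8 CPM (3.91-fold, adjusted p = 9.6e-11). Replicates were tight and far apart between groups in both genes. EFNB2, a membrane-bound ligand of Eph receptors, rose from 8.15, 8.01 and 8.39 CPM to 29.6, 28.3 and 27.7 CPM (3.49-fold, adjusted p = 1.4e-12), and its mean was already 36.6 CPM at 2 h. NR5A2, an orphan nuclear receptor, rose from 4.17, 5.70 and 3.69 CPM to 15.7, 15.3 and 15.0 CPM (3.37-fold, adjusted p = 7.6e-11). CFAP58, a protein of cilia and flagella, rose 3.41-fold (adjusted p = 1.2e-11). PET100, an assembly factor of cytochrome c oxidase, rose 3.33-fold (adjusted p = 6.9e-14), but it overlaps PCP2 and STXBP2, and STXBP2 did not pass the test (log2 fold change -0.01, adjusted p = 0.912). All these p-values are from edgeR, and none of these genes had overlapping groups.

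Among abundant genes, TMSB10, which binds actin monomers, rose from 718, 735 and 681 CPM to 1563, 1729 and 1457 CPM (2.23-fold, edgeR adjusted p = 3.8e-11). The long non-coding RNA CYTOR rose 2.62-fold (adjusted p = 2.8e-07), SFTA1P 2.45-fold (adjusted p = 2.0e-08) and SNHG8, a host of a small nucleolar RNA, 2.35-fold (adjusted p = 3.8e-06). CYTOR, SFTA1P and SNHG8 each overlap other genes.

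**Figure D2:**
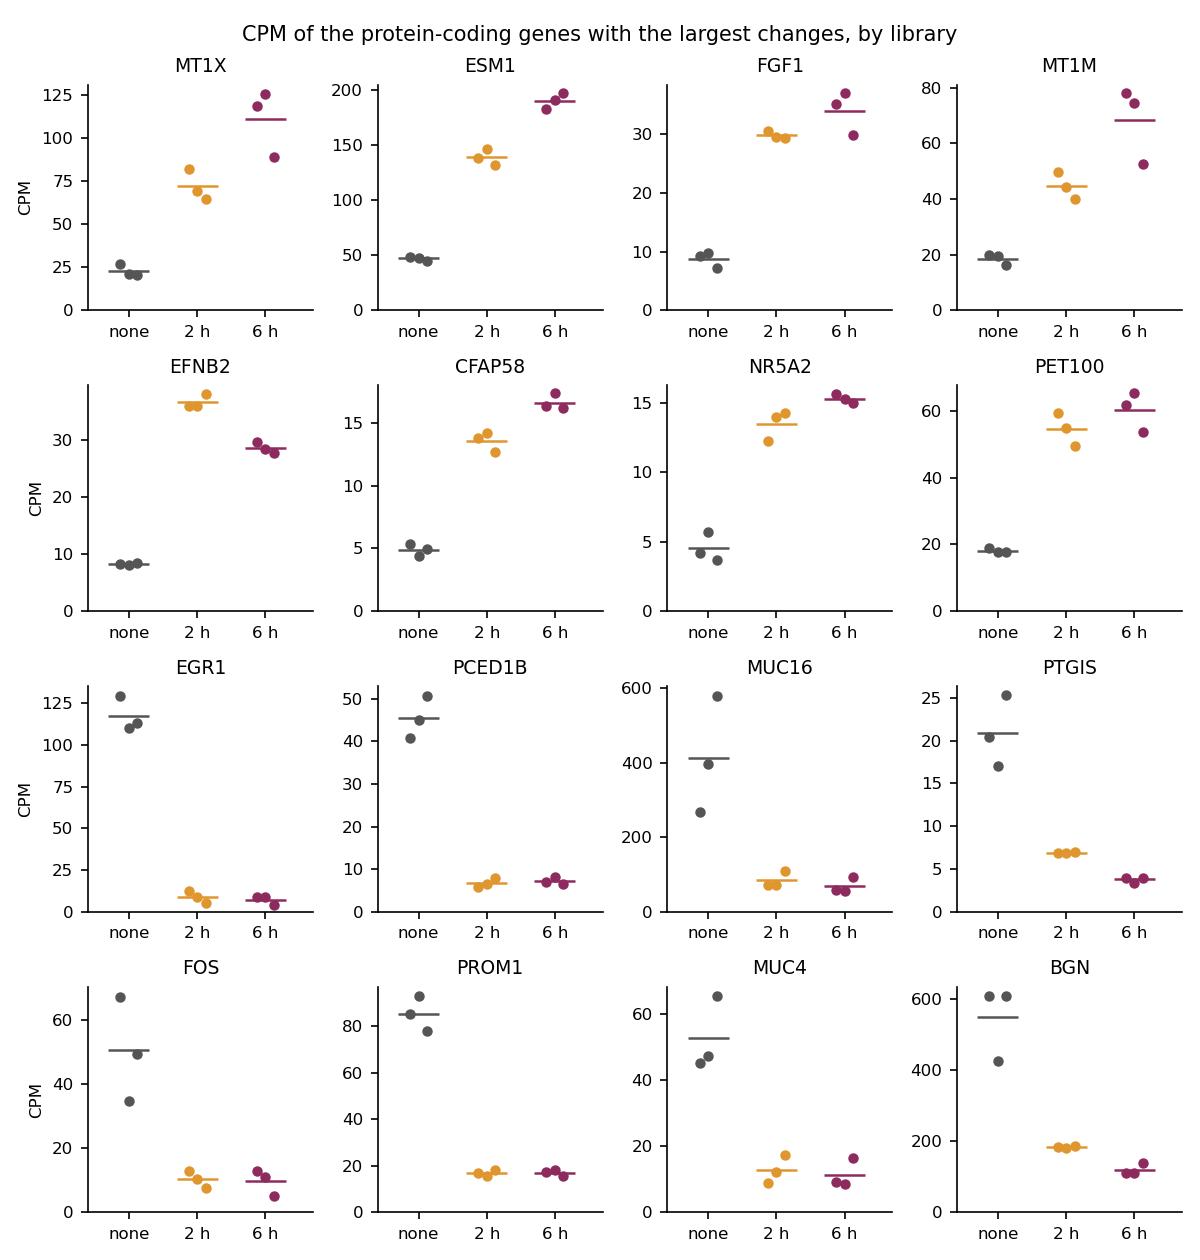
CPM of the 16 protein-coding genes with the largest changes among those at a mean log2 CPM of at least 3, 8 raised and 8 lowered, in each library of PEO1 BRCA2+ without treatment and after 2 h and 6 h of PDS (vertical axes start at 0). Points are libraries and lines are means of 3. In every panel the 6 h points lie on the far side of all untreated points, and the mean at 2 h is nearer to that at 6 h than to the untreated mean.

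Genes of the translation and respiration machinery were higher by small amounts. Of 82 tested ribosomal protein genes 71 were higher and 1 lower by adjusted p alone (27.0% and 26.0% of all genes). The median log2 fold change was 0.59, and 6 of the 82 (7.32%, against 1.29% of all genes) passed the 2-fold threshold. The median with an offset for GC content and transcript length was 0.48, with 4 members raised and 1 lowered. RPS14, a component of the small subunit, had 441, 426 and 415 CPM without PDS and 1067, 1208 and 984 CPM at 6 h (2.54-fold, edgeR adjusted p = 1.5e-13). RPS29 rose 3.12-fold (adjusted p = 8.1e-15) and RPL38 2.73-fold (adjusted p = 4.8e-15). RPL26 (2.18-fold) and RPL24 (2.06-fold) fell under the threshold with the offset and with library totals. RPL24 did so also with upper quartile scaling, with protein-coding genes only and without the second library at 6 h (0.98). The groups did not overlap in 75 of the 82 genes, against 61.8% of all genes and 82.6% of the protein-coding genes of highest level (a mean log2 CPM of 9 or more). The share of all counts on ribosomal protein genes moved from 4.5% to 4.68% without treatment to 5.51% to 6.26% at 6 h.

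Nuclear genes of oxidative phosphorylation behaved alike, with 67 of 76 higher and 0 lower by adjusted p alone (27.0% and 26.0% of all genes) and a median of 0.54. ATP5MC3, a subunit of the ATP synthase ring, rose from 46.4, 46.1 and 41.1 CPM to 115, 120.2 and 112 CPM (2.60-fold, edgeR adjusted p = 1.5e-13), and ATP5ME, another ATP synthase subunit, rose 2.43-fold (adjusted p = 6.7e-12). Of 46 ribosome biogenesis genes 38 were higher by adjusted p alone (median 0.52), of which fibrillarin (FBL), the methyltransferase of box C/D particles, passed 2-fold with 151, 154 and 153 CPM and then 333, 353 and 311 CPM (adjusted p = 4.8e-13). Its log2 fold change was 0.99 with the GC and length offset and 0.97 with library totals, both under the threshold. With the GC and length offset the list medians were 0.42 for oxidative phosphorylation and 0.43 for ribosome biogenesis. Transcript length moved with the response over protein-coding genes, as given below, and its part in these lists was not tested.

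Sterol synthesis genes also lay above the median of all genes. Of 32 genes of cholesterol and fatty acid synthesis 19 were higher and 3 lower by adjusted p alone (27.0% and 26.0% of all genes), with a median of 0.42. HMGCS1, which makes the precursor of mevalonate, was the only one past 2-fold, with 61.5, 62.6 and 55.4 CPM and then 135, 135 and 121 CPM (edgeR adjusted p = 7.7e-08). With library totals its log2 fold change was 0.97, under the threshold. The isomerase IDI1 (0.93, adjusted p = 2.5e-09) followed it, whereas the desaturase SCD did not pass the test (0.33, adjusted p = 0.355). Chaperones were similar, with 14 of 22 higher and 4 lower by adjusted p alone, a median of 0.39 and none raised past 2-fold. HSPA1A, an inducible HSP70, had 5, 14 and 6 counts without PDS and 0, 0 and 3 at 6 h, at least 4.15-fold lower at 3 counts per library (edgeR adjusted p = 0.00193). It shares reads with its near-identical copy HSPA1B, which was at 0.53 (adjusted p = 0.0195). DNAJA1 was at 0.88 (adjusted p = 4.7e-10) and HSPA8 at 0.56 (adjusted p = 1.2e-06), but HSPB1 was at -0.88 (adjusted p = 4.5e-07), all by edgeR.

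The genes of the DNA damage and G4 responses were mostly under the 2-fold threshold. Of 25 targets of the tumour suppressor p53, 11 were higher and 3 lower by adjusted p alone (27.0% and 26.0% of all genes). The median was 0.14, and DDB2 (0.61, edgeR adjusted p = 1.4e-05) and AEN (0.50, adjusted p = 2.2e-06) were among the higher ones. CDKN1A, the inhibitor of cyclin-dependent kinases, rose from 9.78, 8.22 and 8.65 CPM to 15.2, 18.2 and 22.8 CPM (2.11-fold, edgeR adjusted p = 2.9e-06). All treated libraries lay above all untreated ones, but without the third library at 6 h the log2 fold change was 0.92, under the threshold, as it was with library totals (0.93). TP53INP1, a proapoptotic target, fell 2.55-fold (adjusted p = 1.4e-04), and MDM2 did not pass the test (-0.15, adjusted p = 0.0533). Of 17 helicases and factors that unwind G4s 0 were called, with 7 higher and 6 lower by adjusted p alone. DHX36 was at 0.50 (adjusted p = 6.0e-07), and PIF1 at -0.68 (adjusted p = 4.1e-06). Of 17 oncogenes with described promoter G4s 0 were called. MYC had 278, 260.3 and 286 CPM and then 327, 328 and 314 CPM (log2 fold change 0.23, adjusted p = 7.2e-04), and TERT was at -0.61 (adjusted p = 0.00155). The MYC libraries did not overlap between groups, yet the difference was 1.18-fold. Genes of DNA replication (41) and of mitosis (38) had no called member in either direction and a median of 0.24 each.

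Elongation factors of RNA polymerase II were checked because HEXIM1 is known to respond to release of the kinase P-TEFb. Of 29 genes 0 were called, and 16 were higher and 4 lower by adjusted p alone (27.0% and 26.0% of all genes). HEXIM1 had 128, 133 and 124 CPM and then 222, 224 and 213 CPM (log2 fold change 0.78, edgeR adjusted p = 2.1e-09), and LARP7, its partner on the 7SK RNA, was at 0.84 (adjusted p = 1.3e-09). Both groups were tight and apart. The 7SK RNA gene RN7SK fell from 2.25, 2.52 and 2.11 CPM to 0.705, 0.637 and 0.587 CPM (3.55-fold, adjusted p = 1.4e-05), a transcript without a poly(A) tail in libraries that were enriched for poly(A).

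**Figure D3:**
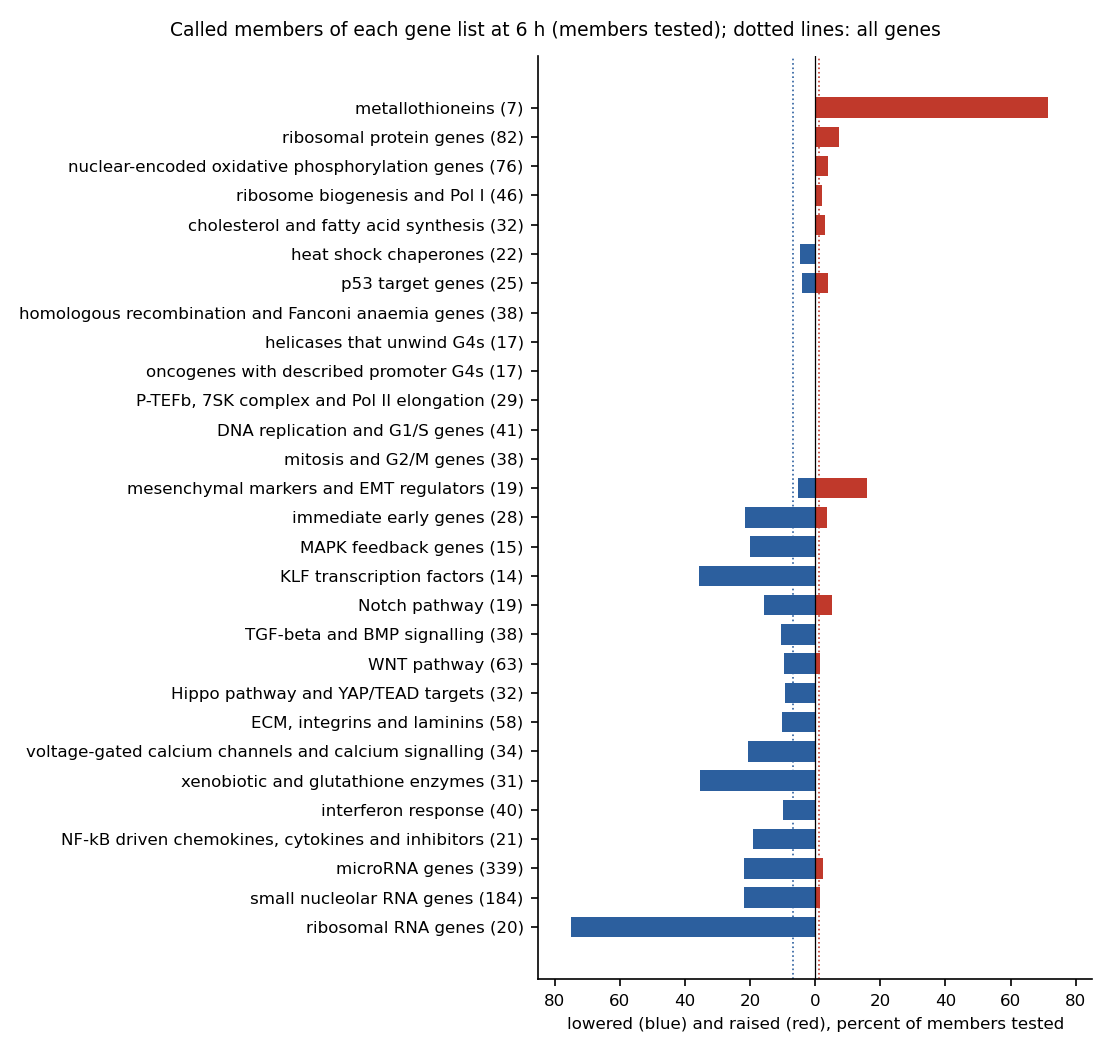
Share of the tested members of 29 gene lists that were lowered (blue, to the left) or raised (red, to the right) at 6 h, in percent, with the number of members tested in parentheses. Dotted lines mark the shares over all 17020 genes, 6.83% lowered and 1.29% raised. Metallothioneins (71.4% raised) and ribosomal RNA genes (75.0% lowered, repeat copies that share reads) reach farthest, while repair, helicase, oncogene, elongation and cell cycle lists have no bar.

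Among protein-coding genes at a mean log2 CPM of at least 3 whose groups did not overlap, EGR1 fell most. Immediate early genes encode short-lived transcription factors that growth factor signalling through SRF and ERK switches on within minutes. EGR1 had 129, 110.3 and 113 CPM without PDS and 8.79, 8.79 and 4.23 CPM at 6 h, 16.1-fold lower (log2 fold change -4.01, standard error 0.388, edgeR adjusted p = 1.8e-06). Its mean was already 8.71 CPM at 2 h. FOS fell from 67.1, 34.6 and 49.4 CPM to 12.9, 11.0 and 5.25 CPM (5.15-fold, adjusted p = 0.00521). FOS varied more than EGR1 among the untreated libraries, but all of these lay above the treated ones. FOSB fell 4.39-fold (adjusted p = 0.0300), a call that was lost when any library but the second untreated one was left out, with log2 fold changes of -2.23 to -1.71 in those fits (adjusted p up to 0.114).

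The list did not fall as a whole. Of 28 tested immediate early genes 6 (21.4%, against 6.83% of all genes) fell, EGR3 rose 2.35-fold (edgeR adjusted p = 3.6e-04), and the list median was -0.06. IER3 fell to 1.46 CPM from 6.03 CPM (log2 fold change -2.04, adjusted p = 1.6e-07), CCN2, a matricellular growth factor, fell 2.38-fold (adjusted p = 0.00422) and KLF2 3.39-fold (adjusted p = 0.00827). JUN (0.23, adjusted p = 0.445), ATF3 (0.26, adjusted p = 0.0963) and CCN1 (-0.02, adjusted p = 0.951) did not pass the test, and SRF itself was at 0.52 (adjusted p = 2.8e-07). In the group of feedback inhibitors of MAP kinases, 3 of 15 fell. The phosphatase DUSP1 went from 122, 77.2 and 111 CPM to 45.4, 48.9 and 41.7 CPM (2.28-fold, adjusted p = 0.0141), a call lost without the first untreated library (log2 fold change -1.05, adjusted p = 0.0503). DUSP6, which follows ERK activity, did not pass (0.30, adjusted p = 0.0813), and DUSP4 was at 0.75 (adjusted p = 0.00985). Of 14 KLF factors 5 fell (35.7%), among them KLF9 by 2.34-fold (adjusted p = 1.3e-07), while KLF4 was at 0.46 (adjusted p = 0.0159), all by edgeR.

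The EGR1 promoter is shown for its SRF sites, with CArG boxes in capitals (searched on both strands), at chr5:138465229-138465528 on the plus strand.
EGR1: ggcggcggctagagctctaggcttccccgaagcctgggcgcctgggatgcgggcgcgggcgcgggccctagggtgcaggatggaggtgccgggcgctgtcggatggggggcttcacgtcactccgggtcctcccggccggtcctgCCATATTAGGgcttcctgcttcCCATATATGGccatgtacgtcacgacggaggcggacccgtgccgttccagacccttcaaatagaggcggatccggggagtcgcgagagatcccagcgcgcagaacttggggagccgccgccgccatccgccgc
It held 2 CArG boxes, at 105 to 96 and at 83 to 74 bases before the start, and 1.29% of all windows held one. The windows of FOS, FOSB, KLF2, CCN2 and DUSP1, which also fell, held none. Of 121 tested protein-coding genes with a CArG box 9.09% were lowered and 2.48% raised, against 4.82% and 1.07% of 11481 without one. With 11 and 3 genes behind the former shares, they are given as a description.

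Several abundant genes of the cell surface and the matrix fell. MUC16, the mucin that carries the tumour marker CA125, had 266, 395 and 579 CPM without PDS and 59.1, 54.6 and 92.2 CPM at 6 h (6.02-fold lower, edgeR adjusted p = 5.0e-04). MUC4, another membrane mucin, fell from 45.0, 47.3 and 65.3 CPM to 9.17, 8.61 and 16.3 CPM (4.62-fold, adjusted p = 2.4e-04). For both mucins the third library was the highest of its group in either condition, and the groups stayed apart. BGN (biglycan), a matrix proteoglycan, fell from 609.6, 427 and 610.2 CPM to 112, 111 and 138 CPM (4.57-fold, adjusted p = 3.4e-06). FN1 fell from 569, 690.3 and 901 CPM to 184, 180.0 and 218 CPM (3.71-fold, adjusted p = 3.9e-07). PROM1, the surface protein CD133, fell from 85.5, 93.2 and 77.9 CPM to 17.2, 18.1 and 15.8 CPM (5.03-fold, adjusted p = 1.0e-08).

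PTGIS, the prostacyclin synthase, fell 5.53-fold (edgeR adjusted p = 7.5e-07) and PCED1B 6.28-fold (adjusted p = 1.7e-09). KRT81, a hair keratin and the most abundant lowered gene, had 2182, 2362 and 2246 CPM and then 969, 1055 and 854 CPM (2.36-fold lower, adjusted p = 7.8e-06). It overlaps KRT86, whose own log2 fold change was 0.91. TNS3, a focal adhesion protein, fell 2.09-fold (adjusted p = 2.8e-11) and complement C3 2.18-fold (adjusted p = 4.3e-06), and the log2 fold change of TNS3 was -0.86 with the GC and length offset, under the threshold, as it was without the second library at 6 h. Over 58 genes of matrix, integrins and laminins 6 fell (10.3%, against 6.83% of all genes) and 0 rose, with a median of -0.09, but with the GC and length offset 4 fell and 4 rose, with a median of 0.01. ITGA9, the integrin alpha 9 chain, fell 7.26-fold from 3.45, 3.10 and 3.82 CPM to 0.298, 0.576 and 0.558 CPM (adjusted p = 1.9e-11). Among mesenchymal markers the direction differed, since CDH11 rose from 24.0, 22.6 and 21.8 CPM to 58.4, 55.2 and 60.3 CPM (2.55-fold, adjusted p = 5.9e-13) and FN1 fell. MMP9, a matrix metalloproteinase, rose from 2.11, 2.35 and 3.56 CPM to 7.89, 7.76 and 9.07 CPM (adjusted p = 3.1e-08). SNAI2, a repressor of epithelial genes, rose from 2.64, 1.65 and 2.37 CPM to 5.67, 6.52 and 6.34 CPM (adjusted p = 3.7e-07). The groups of all 3 raised markers were apart. Of 28 epithelial markers TJP3, a tight junction scaffold, was the 1 that fell (2.34-fold, adjusted p = 5.5e-05), and the list median was 0.14. The p-values are from edgeR.

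The promoters of BGN and TMSB10, an abundant gene of each direction, are shown for their G4 motifs. A G4 motif was taken as 4 or more runs of at least 3 G with 1 to 7 bases between them on either strand, and capitals mark it. BGN is at chrX:153494730-153495029 and TMSB10 at chr2:84905406-84905705, both on the plus strand.
BGN: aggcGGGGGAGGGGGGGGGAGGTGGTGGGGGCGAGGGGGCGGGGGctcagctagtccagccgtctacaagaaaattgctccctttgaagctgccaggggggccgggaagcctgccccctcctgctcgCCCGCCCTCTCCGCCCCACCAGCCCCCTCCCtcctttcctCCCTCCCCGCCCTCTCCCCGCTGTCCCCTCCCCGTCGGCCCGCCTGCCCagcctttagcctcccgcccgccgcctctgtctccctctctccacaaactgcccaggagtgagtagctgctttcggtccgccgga
TMSB10: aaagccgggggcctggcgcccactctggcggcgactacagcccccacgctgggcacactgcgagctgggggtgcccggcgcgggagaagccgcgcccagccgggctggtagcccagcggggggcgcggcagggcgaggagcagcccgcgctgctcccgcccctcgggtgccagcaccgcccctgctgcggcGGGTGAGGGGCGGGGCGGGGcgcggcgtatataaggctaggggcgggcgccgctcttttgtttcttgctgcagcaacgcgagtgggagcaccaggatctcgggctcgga
BGN held 3 such stretches and TMSB10 held 1, and 24.1% of all windows held at least 1. Of the other most abundant called genes with a window, FN1 held 1, and RPS14, RPL24, RPL26 and TNS3 held none. The 3974 tested protein-coding genes with a motif had a median log2 fold change of -0.04, with 0.579% raised and 5.59% lowered. The 7628 genes without one had a median of 0.05, with 1.35% raised and 4.48% lowered. At a mean log2 CPM of at least 3 the shares were 0.384% and 1.71% with a motif and 0.903% and 1.04% without. A motif is no measured G4, and G4 maps were not used here.

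Of 38 genes of TGF-beta and BMP signalling 4 fell (10.5%, against 6.83% of all genes) and 0 rose. By adjusted p alone 10 were higher and 13 lower (27.0% and 26.0% of all genes). The receptor BMPR1B (0.75, edgeR adjusted p = 0.00624) and the ligand BMP6 (0.43, adjusted p = 3.6e-04) were among the higher ones. SMAD6, the inhibitory SMAD, went from 39.9, 39.5 and 46.4 CPM to 13.0, 12.9 and 11.8 CPM (3.33-fold lower, edgeR adjusted p = 4.3e-11). ID1, a BMP-induced inhibitor of bHLH factors, went from 163, 137 and 177 CPM to 52.7, 58.4 and 43.7 CPM (3.09-fold lower, adjusted p = 3.6e-08). ID2 fell 3.28-fold (adjusted p = 5.9e-13) and the ligand BMP2 by 1.61 on the log2 scale (adjusted p = 2.9e-08), while ID3, a target of the same pathway, was at 0.36 (adjusted p = 0.0152). SMAD7 did not pass (0.11, adjusted p = 0.154). In the Notch list 3 of 19 fell (15.8%) and 1 rose, the target HEY1, at 4, 2 and 5 counts and then 15, 21 and 22 counts (3.39-fold, adjusted p = 0.00559). NOTCH3 went from 125, 154 and 135 CPM to 55.3, 51.0 and 51.8 CPM (2.62-fold lower, adjusted p = 2.2e-06), and its target HES1 fell 2.18-fold (adjusted p = 0.00787), a call that was lost without the first untreated library or without the third treated one (in the latter case a log2 fold change of -0.92).

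Further lists differed in their share of called members. Of 492 zinc finger (ZNF) genes 9 fell (1.83%, against 6.83% of all genes) and 0 rose, with a median of 0.03. Of 53 histone genes 3 rose (5.66%, against 1.29% of all genes) and 2 fell (3.77%, against 6.83%), all at a mean log2 CPM below 3. With the GC and length offset 2 rose and 4 fell. H1-5, one of those raised (log2 fold change 1.07, edgeR adjusted p = 0.0303), was at 0.93 (adjusted p = 0.0550) with that offset and at 0.74 (adjusted p = 0.154) without the first untreated library. Histone mRNAs mostly lack a poly(A) tail. Lysosomal genes (32) had 0 called members in either direction, and so had 17 genes of SR splicing factors. Of the latter 13 were higher and 1 lower by adjusted p alone (27.0% and 26.0% of all genes), with a median of 0.39. That median was 0.24 with the GC and length offset.

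The WNT, Hippo and calcium lists follow pathways that the study examined in PEO4. In the WNT list 6 of 63 fell (9.52%, near the 6.83% of all genes). By adjusted p alone 27 were lower and 9 higher (26.0% and 27.0% of all genes), with a median of -0.18. Those that fell included WNT5A, a ligand of the non-canonical branch, by 3.25-fold (edgeR adjusted p = 3.0e-09). The receptor FZD7 (log2 fold change -1.20, adjusted p = 6.1e-09) and the polarity protein VANGL2 (-1.20, adjusted p = 1.2e-08) fell too. WNT7A rose from 87.2, 92.2 and 86.4 CPM to 188, 191 and 179 CPM (2.10-fold, adjusted p = 1.8e-04). Its libraries did not overlap, and its log2 fold change was 0.92 with library totals, under the threshold. Of 32 Hippo pathway genes and YAP targets 3 fell (9.38%, also near 6.83%), AMOT, ANKRD1 and CCN2, while CCN1 did not pass. By adjusted p alone 12 of them were lower and 8 higher, with a median of -0.04. Of 34 calcium channel and calcium signalling genes 7 fell (20.6%), all at a mean log2 CPM below 3. In the bins of level given below, 8.53% to 18.8% of protein-coding genes under that level fell. The 34 genes include 11 at or above that level, so the share among the low-level members alone was higher than 20.6%. An example was CACNA1F at 0.383, 0.454 and 0.659 CPM and then 0.108, 0.0303 and 0.147 CPM (edgeR adjusted p = 0.00109). By adjusted p alone 19 genes of the calcium list were lower and 1 higher, with a median of -0.46.

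The heart muscle and the DNA adduct lists mirror terms that the study picked on these samples, so their counts are not independent evidence. Of 31 xenobiotic and glutathione enzymes 11 fell (35.5%) and 0 rose, all at a mean log2 CPM below 3. Over all genes 6.83% fell, and over protein-coding genes in the bins below that level 8.53% to 18.8%. The 31 enzymes include 9 at or above that level, so the share among the low-level members alone was higher than 35.5%. CYP1B1, a hydroxylase induced through the aryl hydrocarbon receptor, went from 9.68, 10.5 and 12.0 CPM to 3.12, 3.34 and 2.67 CPM (log2 fold change -1.82, edgeR adjusted p = 1.7e-12). CYP1A1, induced by the same receptor, went from 1.25, 1.45 and 2.68 CPM to 0.380, 0.425 and 0.235 CPM (5.14-fold lower, adjusted p = 2.6e-07), and the carbonyl reductase CBR1 was at -1.83 (adjusted p = 3.8e-11). Of the 9 members at a mean log2 CPM of at least 3, GSTP1 (0.36, adjusted p = 1.1e-05), MGST3 (0.68, adjusted p = 7.1e-09), GSTO1 (0.65, adjusted p = 2.6e-06) and MGST2 (0.40, adjusted p = 0.00126) were higher by adjusted p alone. GSTO2 was lower (-0.37, adjusted p = 9.5e-04), and MGST1 (-0.13, adjusted p = 0.0808) and NQO1 (0.16, adjusted p = 0.102) did not pass the test. SULT1A3 and SULT1A4 had identical values and share reads. Of 34 heart muscle genes 2 fell and 1 rose, or 2 and 0 with the GC and length offset. TTN, the longest of them, fell 2.47-fold (adjusted p = 1.9e-08), and its log2 fold change was -0.56 with that offset, under the threshold.

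Inflammatory lists held some lowered genes. Of 21 NF-kB driven genes 4 fell (19.0%, against 6.83% of all genes) and 0 rose. By adjusted p alone 11 were lower and 3 higher (26.0% and 27.0% of all genes). The 4 were at a mean log2 CPM below 3, with CXCL2, a neutrophil chemokine, going from 15.0, 7.19 and 13.2 CPM to 3.20, 3.73 and 3.08 CPM (3.51-fold lower, edgeR adjusted p = 1.0e-06). CXCL8 (0.15, adjusted p = 0.239) and NFKBIA (-0.06, adjusted p = 0.610) did not pass. Of 40 interferon response genes 4 fell, all at a mean log2 CPM below 3, such as MX2, an antiviral GTPase, at 0.623, 0.744 and 0.746 CPM and then 0.0814, 0.152 and 0.0881 CPM (adjusted p = 0.00502). The calls of XAF1 and IFITM2 were not stable. XAF1 lost its call in 4 of the 6 fits that left out a library (log2 fold changes -2.24 to -1.69). IFITM2, at 2, 2 and 3 counts at 6 h, was at least 2.89-fold lower at 3 counts per library. It lost its call in 5 of 6 such fits (fitted values -2.04 to -1.55) and also with a GC offset (fitted -1.79, edgeR adjusted p = 0.0528). CEBPB, a stress-responsive transcription factor, was the only member of 29 in the integrated stress response list that was called, with 267, 263 and 311 CPM and then 95.8, 95.2 and 81.0 CPM (3.09-fold lower, adjusted p = 1.7e-11).

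Steep falls were also seen in ribosomal RNA, which poly(A)-enriched libraries hold as a remnant. RNA28SN1, a 28S ribosomal RNA gene on chromosome 21, had 506, 224 and 395 CPM without PDS and 37.3, 20.6 and 16.8 CPM at 6 h (15.0-fold lower, edgeR adjusted p = 7.9e-07). RNA45SN1 and RNA45SN5 had identical values and share reads with it. Of 20 ribosomal RNA genes 15 fell, but these are repeat copies that share reads. The 5 RNA18SN genes had identical values and the 5 RNA5-8SN genes nearly so, and the latter were under the threshold, so the count is not one of separate transcripts. RNA18SN1 had at most 3 counts per treated library against 4.71 to 8.19 CPM without PDS, and was at least 79.9-fold lower. MIR3648-1 and MIR3648-2, which lie within ribosomal DNA repeats, had 0 counts at 6 h and 1.07 to 3.60 CPM before, at least 29.5-fold lower. The share of reads on ribosomal RNA parted the groups, as given above, and its part in these falls was not tested.

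BCYRN1, a primate transcript of RNA polymerase III best known from neurons, went the other way. It had 2, 3 and 4 counts in the untreated libraries and 789, 918 and 853 at 6 h, 9 against 2560 in sum. The ratio after scaling was 186 (95% interval 97.7 to 407 by the exact binomial method, counting error only), and the edgeR adjusted p was 6.0e-17. It overlaps EPCAM-DT, and its level at 2 h was already 23.2 CPM. Of 339 genes with a microRNA symbol, of which 316 are microRNA genes by annotation and the others host genes, 74 fell and 8 rose, and with the GC and length offset the numbers were 33 and 26. The highest of those raised, MIR6805 at 1.58 to 2.11 CPM and then 18.3 to 23.4 CPM, lies within RPL28, whose own log2 fold change was 0.51. Reads of the host cannot be told from those of the microRNA. Of 184 small nucleolar RNA genes 40 fell and 3 rose, or 25 and 4 with the offset. SNORD104 (2.91-fold, adjusted p = 3.8e-08) rose together with its host SNHG25 (2.22-fold, adjusted p = 1.9e-05).

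Gene properties moved with the response, and they were measured over protein-coding genes. The median log2 fold change went from 0.47 for transcripts under 600 bases (192 genes, 9.90% raised) through 0.05 for 2000 to 4000 bases to -0.22 for those of 8000 bases or more (1285 genes, 7.78% lowered). By GC content it was 0.13 under 40% and -0.28 at 65% or more, where 10.2% of 609 genes were lowered. By gene span it was 0.09 under 5000 bases and -0.21 at 200000 bases or more, where 9.48% of 1139 genes were lowered. By level it was -0.43 below a mean log2 CPM of 0, where 18.8% of 1743 genes were lowered, and 0.32 at 9 or more, where 0.446% of 224 were. The offset for GC content and length, chosen after seeing the data, brought the length medians to 0.37 and -0.03, and 168 of the 220 raised and 975 of the 1163 lowered genes were also called with it.

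**Figure D4:**
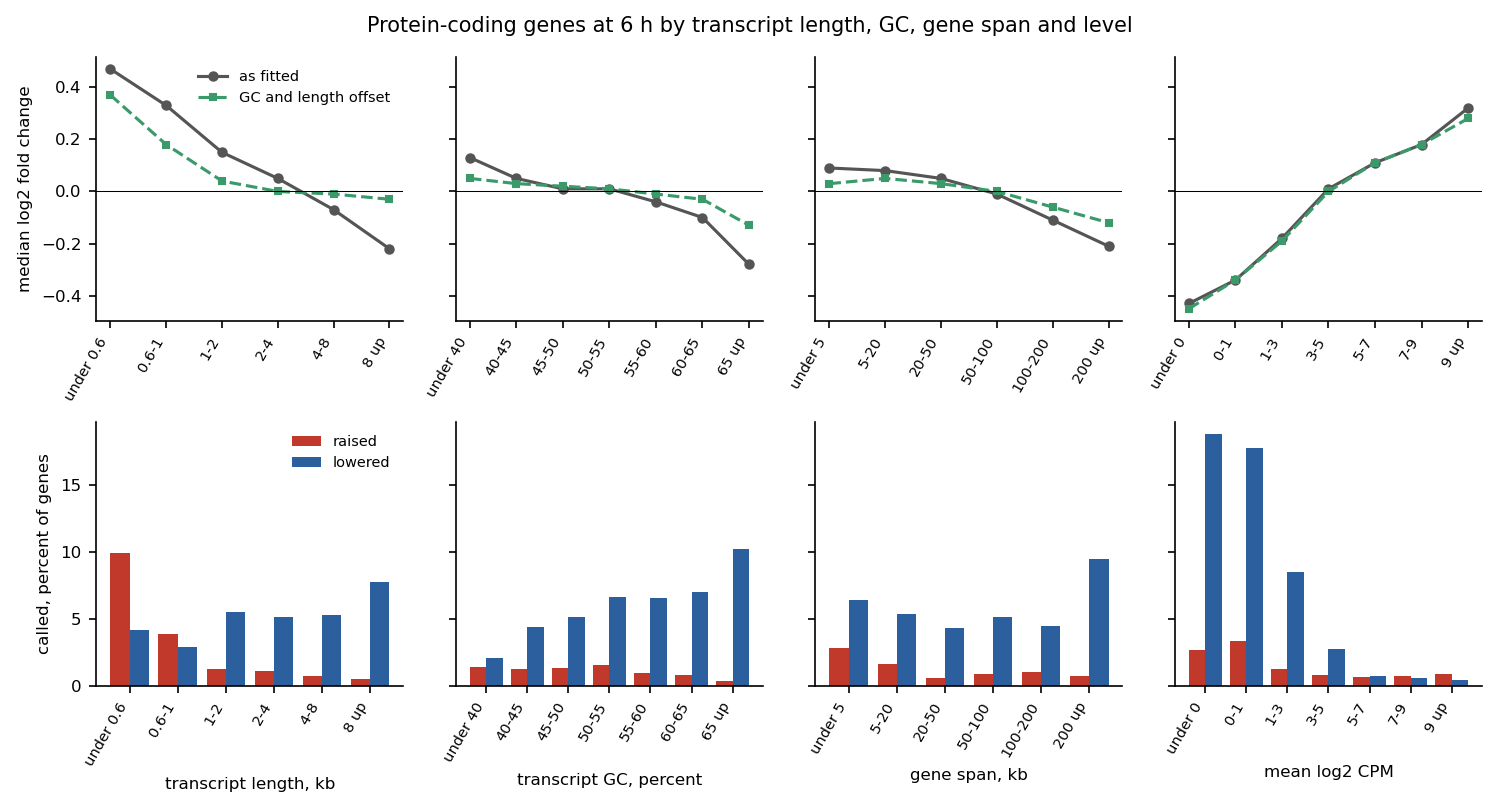
Median log2 fold change at 6 h (upper row) and percent of genes raised and lowered (lower row) for protein-coding genes binned by canonical transcript length, transcript GC content, gene span and mean log2 CPM. Grey circles are the fit used in the text and green squares the fit with a GC and length offset. Medians fall from 0.47 to -0.22 over transcript length, and the lowered share is highest in the bins of lowest level, at 18.8% and 17.8%.

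Few genes were called between 2 h and 6 h of PDS. Between the time points 29 genes (0.170% of 17020) were called, 12 higher (0.0705%) and 17 lower (0.0999%) at 6 h. This count was 13 to 35 with single libraries left out (13 without the second at 2 h and 14 without the first at 6 h), 16 with DESeq2 and 1182 by adjusted p alone. Both times share the untreated libraries, and the genes below were chosen on their change at 6 h. Their medians are given side by side, and nothing is read from their closeness. The 220 genes raised at 6 h had a median of 1.30 at 6 h and of 1.16 at 2 h, and the 1163 lowered genes had -1.43 and -1.28. Of the raised genes 2 passed the threshold of 2-fold upward from 2 h to 6 h, and of the lowered ones 13 passed it downward. CA9, carbonic anhydrase IX, a hypoxia-induced enzyme of the cell surface, was singled out after its values were seen. It had 2.06, 3.14 and 0.834 CPM without PDS, 2.15 CPM on average at 2 h and 13.6, 13.5 and 12.7 CPM at 6 h, a log2 fold change of 2.63 from 2 h to 6 h (edgeR adjusted p = 4.9e-07). ID2 went from 47.7 CPM to 35.5 and then 14.5 CPM on average (6 h against 2 h -1.29, adjusted p = 2.8e-09). PTCH1, the Hedgehog receptor, was at 1.79, 0.671 and 1.44 CPM in that order (6 h against 2 h 1.10, adjusted p = 0.0217), a call lost in 5 of the 6 fits that left out a library of these times. The kinase TNIK continued to fall, with 2.24, 0.806 and 0.307 CPM (-1.38, adjusted p = 0.00432).

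PEO4 responded to the same treatment in part differently. The test of the difference between responses at 6 h called 2512 genes (14.8% of 17020), 923 with a higher response in PEO4 (5.42%) and 1589 with a lower one (9.34%). The 220 genes raised in PEO1 BRCA2+ had a median of 0.81 in PEO4, and the 1163 lowered genes had -1.14. The genes were chosen on PEO1 BRCA2+, so nothing is read from the smaller medians. The metallothioneins MT1X (0.84 in PEO4) and MT1M (0.18) responded more in PEO1 BRCA2+, whereas the difference did not pass the test for MT1E (1.41 in PEO4, edgeR adjusted p = 0.148) or MT2A (adjusted p = 0.500). Of the 7 tested metallothioneins 4 had a lower response in PEO4. A higher response in PEO1 BRCA2+ was also seen for CFAP58 (-0.20 in PEO4). NR5A2 was at 0.00 in PEO4 with a wide standard error (0.894), and the difference between the lines did not pass the test (edgeR adjusted p = 0.197). ESM1 (3.69 in PEO4) and FGF1 (3.61) responded more in PEO4. The log2 fold change of BGN was -2.19 in PEO1 BRCA2+ and -5.43 in PEO4. KRT81 was at 0.90 and FN1 at 0.53 in PEO4, against -1.24 and -1.89 here. BRCA2 was at 0.21 in PEO4, and the difference between the responses was 0.93 (edgeR adjusted p = 7.9e-05).

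**Figure D5:**
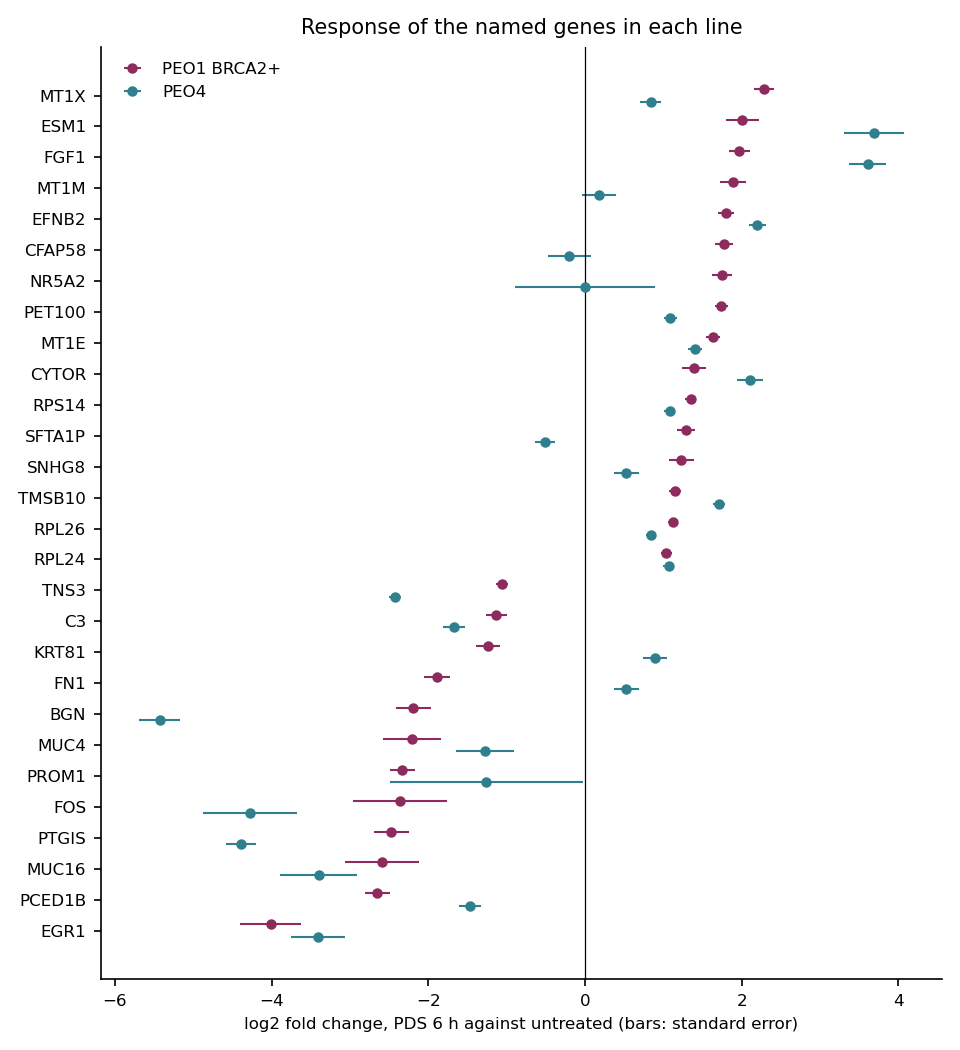
Log2 fold change after 6 h of PDS with its standard error (bars, from edgeR) for the named genes with the largest changes or highest levels, in PEO1 BRCA2+ (purple) and PEO4 (teal). EGR1 is low in both lines, at -4.01 and -3.41, whereas FN1 (-1.89 and 0.53) and KRT81 (-1.24 and 0.90) lie on opposite sides of 0.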

How the data were processed

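RNA-seq of PEO1 BRCA2+ and PEO4 cells (18 libraries in 1 table, 3 per condition) was used, and the other 6 libraries of the series were not. Per the submitters' processing notes and methods, reads were checked with FastQC, trimmed with fastp, aligned to hg38 with STAR and counted with featureCounts after poly(A) enrichment, and the counts that the authors deposited are whole numbers per gene, not normalized. Annotation and strand use are not given in the sources used here. The authors' methods name DESeq2 and iDEP. The table had 28278 lines, 1 of them unreadable and left out. Symbols were matched to RefSeq (27632) and GENCODE release 44 (26196 with length and GC content), and 18730 had a RefSeq promoter window (GRCh38.p14, same bases as hg38 for those printed). Promoter windows covered 81.4% of the protein-coding genes tested.

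The test used edgeR 4.0.16 in R 4.3.3, with filterByExpr at its defaults (minimum count 10), TMM scaling and a robust quasi-likelihood fit of all 18 libraries with a mean per condition (12 residual degrees of freedom, common dispersion 0.00502). Calls needed an adjusted p (Benjamini-Hochberg) under 0.05 together with a log2 fold change beyond 1 in either direction. Where a group had at most 3 counts in every library, a fold change is a lower bound at 3 counts per library. Intervals cover counting error only. Scripts were tested on simulated data, and no replicates were duplicates.

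Named were BRCA2, the 8 protein-coding and 3 other called genes with the largest change in each direction (mean log2 CPM of at least 3, no overlap between groups), the 5 most abundant called protein-coding genes in each direction, and up to 3 called members per list and direction. Further called genes were named after their values were seen. The members and the 43 gene lists were chosen with earlier results of these data known, and lists are described by counts and medians. Alternatives were other scalings and filters, DESeq2 1.42.0, other thresholds, thinning, fits of the compared groups alone, GC and length offsets (loess on transcript properties), a replicate term and leaving out each library.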

Additional observations from a re-analysis of the deposited data

Results flagged for a closer look

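For 12 of the genes named by size or level, the response to 6 h of PDS differed between the lines by a test of the difference itself (edgeR interaction term, Benjamini-Hochberg adjusted p under 0.05 and absolute difference over 1 on the log2 scale). The values are the response of PEO4 minus that of PEO1 BRCA2+. The difference was 1.68 for ESM1, 1.64 for FGF1 and 1.18 for PCED1B, of which PCED1B fell in both lines. It was -1.45 for MT1X, -1.72 for MT1M, -1.97 for CFAP58 and -1.80 for SFTA1P among genes raised in PEO1 BRCA2+. It was -1.92 for PTGIS, -3.24 for BGN and -1.36 for TNS3, which fell in both lines and more in PEO4. It was 2.14 for KRT81 and 2.42 for FN1, which fell in PEO1 BRCA2+ and had log2 fold changes of 0.90 and 0.53 in PEO4. Over all 17020 genes, 14.8% had such a difference. The named genes were chosen on their change in PEO1 BRCA2+, which enters the difference. Their count is therefore not compared with that share.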

How the results depend on the processing

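Of 2726 values of named genes under the alternatives (those of the naming rule and the called ones named beside it), 2546 kept their direction and call, 180 kept their direction without the call and 0 reversed. The count of raised genes (220) was 215 to 242 with each library left out, 146 with library totals, 75 at a log2 fold change over 1.5 and 4593 by adjusted p alone. The count of lowered genes (1163) was 1032 to 1172, 1548, 522 and 4431 in the same order. At a mean log2 CPM of at least 3, chosen after seeing the data as were the offsets for GC content and length together, 78 were raised and 185 lowered. Library totals moved the median of all genes from -0.03 to -0.17, and changes are given relative to TMM. The 29 genes between 2 h and 6 h became 16 with DESeq2, 17 at 1 CPM or more in 3 libraries, 18 after thinning to 18699929 counts, 10 at a log2 fold change over 1.5 and 1182 by adjusted p alone. With each library left out they were 13 to 35, lowest without the second library at 2 h (13) and the first at 6 h (14), and the causes were not tested. The 2512 interaction genes became 8070 by adjusted p alone and 1515 over 1.5. BRCA2 (-0.71) passed by adjusted p alone.

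Replicate numbers are shared between the groups, but same-numbered libraries did not deviate together (r = 0.004, -0.038 and -0.010 across genes, untreated against 6 h). Between 2 h and 6 h r was 0.084, 0.064 and 0.531, and the first library at 2 h was closer to the second at 6 h (0.515) than to the first. With a replicate block 219 genes were raised and 1151 lowered, 218 and 1137 of them shared with the fit without it, and the 29 genes between times became 23. Among named genes the block ended the call of IFITM2 (fitted value -1.83, edgeR adjusted p = 0.0573) and no other. Low counts limit most lowered genes, and the annotation and strand of the counting are unknown.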
